A study of Mus musculus with 12 samples.

Results

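T cells of the mouse meninges whose receptor was not found in the brain parenchyma of the same genotype are described here. They were chosen by receptor sequence. A paired cell, whose productive chains comprised exactly 1 beta (TRB) and 1 or more alpha (TRA), was kept when its TRB nucleotide CDR3 together with the CDR3 of its TRA with most unique molecular identifiers (UMIs) was absent from the paired cells of both parenchyma libraries of its genotype. The rule kept 520 of 719 paired meningeal cells and 502 of 612 meningeal clonotypes, in a series of 5207 paired cells. The samples were C57BL/6 mice that carried the 5xFAD transgenes (5xFADTg), which place mutant human amyloid precursor protein and presenilin in neurons and give amyloid plaques, and C57BL/6 mice without them (NonTg). CD45+ immune cells were sorted from meninges (1 library per genotype) and from parenchyma (2 libraries per genotype). Age, sex and number of animals are not stated by the labels. Since the labels name no animals, whether the spread between libraries is technical or between animals was not tested. Of the 66 NonTg meningeal clonotypes that were also in parenchyma, 47 were in parenchyma 1 and 19 in parenchyma 2. Of the 44 in 5xFADTg, 26 and 18 were, so no such clonotype was in both parenchyma libraries of a genotype. Receptor libraries list 15827899 to 26710709 reads and 49997 to 128700 UMIs each, over 425 to 2122 cells with a productive chain. No library listed a gamma, delta or immunoglobulin chain, but only enriched receptor chains were sequenced, and the gene expression libraries were not analysed here, so T cell subsets were not read from transcripts. Absence from parenchyma means absence from the cells sampled there.

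As background, each T cell joins a V and a J segment for its alpha chain and a V, D and J segment for its beta chain, and bases are removed and added at the joins. The resulting CDR3 loop touches the antigen, and the nucleotide sequence of both chains marks the descendants of a cell as a clone. Most receptors read peptides on classical MHC molecules. Invariant natural killer T (iNKT) cells read lipids on CD1d with a nearly fixed alpha chain of TRAV11 and TRAJ18, paired in mice mainly with TRBV13, TRBV29 or TRBV1. Mucosal-associated invariant T (MAIT) cells read microbial vitamin B metabolites on MR1 with an alpha chain of TRAV1 and TRAJ33. The meninges, the membranes around the brain, house T cells of several kinds and are a border at which immune cells watch over the brain.

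The sequences on which the description turns most are the alpha chains of the iNKT-like members, since the same few sequences recur across many clonotypes. The lines show CDR3 nucleotides from the deposited files, 5′ to 3′, with bases that match neither the germline V nor the germline J segment in capitals. The TRA locus lies on chromosome 14 and the TRB locus on chromosome 6.
iNKT-like alpha, first variant: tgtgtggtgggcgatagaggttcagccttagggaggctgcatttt
iNKT-like alpha, next variant: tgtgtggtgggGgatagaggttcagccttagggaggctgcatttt
iNKT-like alpha, next variant: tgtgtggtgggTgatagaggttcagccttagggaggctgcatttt
iNKT-like alpha, next variant: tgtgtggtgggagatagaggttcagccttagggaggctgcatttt
iNKT-like alpha, rare variant: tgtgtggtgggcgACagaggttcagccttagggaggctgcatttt
iNKT-like alpha, other protein: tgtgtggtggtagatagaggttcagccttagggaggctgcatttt
iNKT-like alpha, another protein: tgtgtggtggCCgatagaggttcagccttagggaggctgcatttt
MAIT-like alpha: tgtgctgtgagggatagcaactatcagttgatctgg
NonTg largest member, beta: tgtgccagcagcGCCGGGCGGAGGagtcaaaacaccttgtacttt
NonTg largest member, alpha: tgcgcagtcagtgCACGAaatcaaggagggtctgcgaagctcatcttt
5xFADTg largest member, beta: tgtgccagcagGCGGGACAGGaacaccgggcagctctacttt
5xFADTg largest member, alpha: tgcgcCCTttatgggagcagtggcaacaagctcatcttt

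The members made up a larger share of the sampled meningeal repertoire in 5xFADTg than in NonTg, and the counting intervals over clonotypes did not overlap. They were 220 of 286 clonotypes in NonTg (76.9%, 95% exact binomial interval 71.6 to 81.7%) and 282 of 326 in 5xFADTg (86.5%, 82.3 to 90.0%). Counted as cells, they were 228 of 349 (65.3%, 60.1 to 70.3%) and 292 of 370 (78.9%, 74.4 to 83.0%). Intervals here and below cover counting error only, and with 1 meninges library per genotype no difference between the genotypes was tested. Those over cells treat the cells of a clone as independent, so they can be too narrow. The parenchymal cells searched differed, 1063 and 766 paired cells in NonTg against 1206 and 1453 in 5xFADTg. At 766 cells per parenchyma library the expected member clonotypes were 225.0 (78.7%) and 289.8 (88.9%). The order of the genotypes thus held at equal cell numbers with both parenchyma libraries kept. Without NonTg parenchyma 1, 267 of 286 NonTg clonotypes were members, and without the other NonTg parenchyma library 239 were. Leaving out a 5xFADTg parenchyma library gave 300 to 308 of 326. The NonTg share without NonTg parenchyma 1 lay within that 5xFADTg range, so the order depended on this library.

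Nearly all members were seen in 1 cell. In NonTg 215 clonotypes had 1 cell, 3 had 2 cells, 1 had 3 and 1 had 4, and in 5xFADTg the numbers were 275, 5, 1 and 1. Cells in clonotypes of 2 or more cells were 13 of 228 in NonTg (5.70%, 3.07 to 9.55%) and 17 of 292 in 5xFADTg (5.82%, 3.43 to 9.16%). The meningeal clonotypes that were also in parenchyma had 79 of 121 cells (65.3%) and 45 of 78 cells (57.7%) in such clonotypes, and their largest had 6 and 14 cells. This contrast is a description, with no test, because the rule depends on clone size: the more cells a clone has, the likelier it is to be met in parenchyma too. Read the other way, the share of clonotypes absent from parenchyma was 215 of 257 (83.7%) for NonTg clonotypes of 1 cell, 3 of 14 (21.4%) for those of 2 cells and 2 of 15 (13.3%) for larger ones. The 5xFADTg shares were 275 of 308 (89.3%), 5 of 12 (41.7%) and 2 of 6 (33.3%), and no clonotype of 5 or more meningeal cells (0 of 7 and 0 of 2) was a member. In parenchymal clonotypes not found in meninges, 30.3% and 31.1% of NonTg and 43.7% and 48.9% of 5xFADTg cells were in clonotypes of 2 or more cells. At 228 cells per library the NonTg parenchyma libraries had an expected 19.96% and 22.7%, and the 5xFADTg ones 32.4% and 32.9%, beside 5.70% and 5.01% of the member cells. This gap is set in part by the rule, which took most expanded clonotypes out of the meningeal side.

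**Figure D1:**
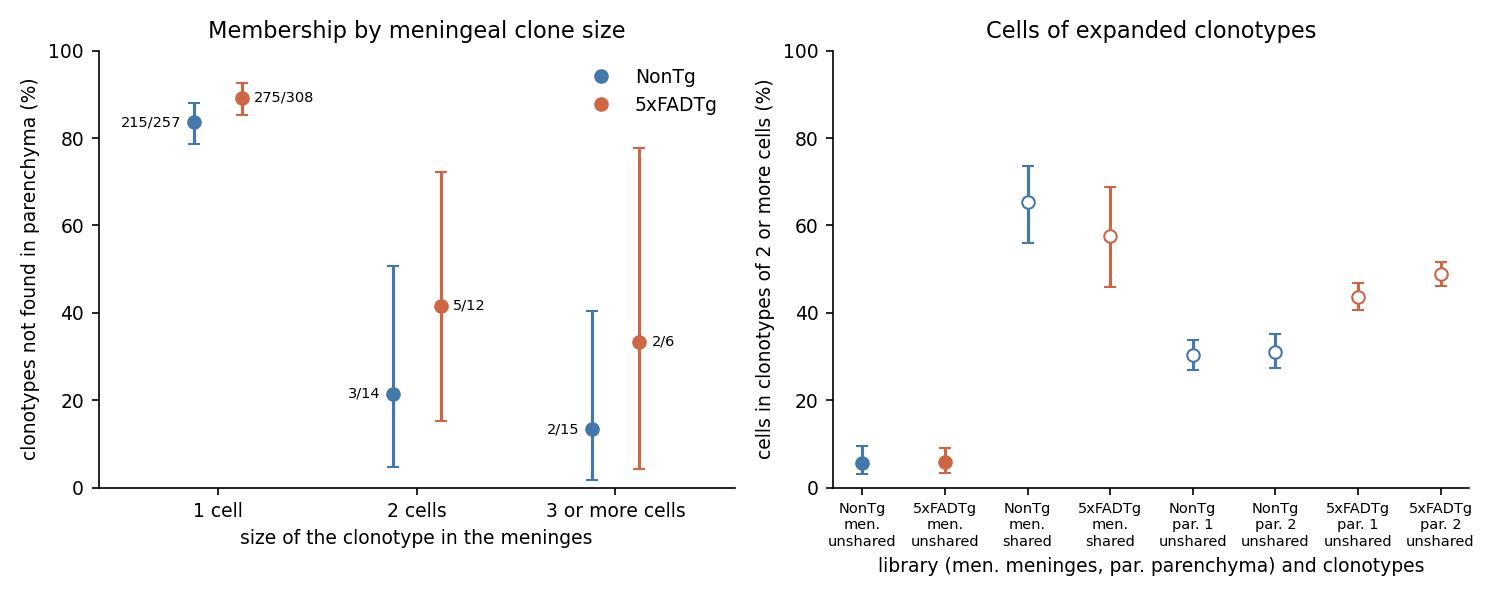
The left plot shows the share of meningeal clonotypes not found in parenchyma by their meningeal size, and the right plot the share of cells in clonotypes of 2 or more cells, by library, for clonotypes shared or not shared between the tissues. Points are shares and bars are 95% exact binomial intervals. Members (filled, right) lie at 5.70% and 5.82%.

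The largest members were small. The NonTg meninges held a clonotype of 4 cells, joined from TRBV3, TRBJ2-4, TRAV3-3 and TRAJ57, with 12 non-germline bases in its beta and 5 in its alpha CDR3. It was 1.75% of the member cells (0.480 to 4.43%). The 5xFADTg meninges also held a clonotype of 4 cells, from TRBV3, TRBJ2-2, TRAV3D-3 and TRAJ32, with 10 and 3 such bases, at 1.37% (0.374 to 3.47%). The clonotypes of 3 cells were TRBV16 with TRAV7D-2 in NonTg and TRBV13-2 with TRAV10D in 5xFADTg. TRBV3 thus formed the largest member clonotype of both libraries. None of the 12 members of 2 or more cells was iNKT-like, where 53 of all 502 members (10.6%) were, a number too small to set them apart.

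iNKT-like receptors, defined as TRAV11 with TRAJ18 and an alpha CDR3 of 15 amino acids, were a larger share of the members in 5xFADTg. They were 37 of 282 clonotypes (13.1%, 9.41 to 17.6%), against 16 of 220 in NonTg (7.27%, 4.21 to 11.5%), and the intervals overlapped. Every one of the 53 was a clonotype of 1 cell, so 0 of 53 was expanded, which allows a share of up to 5.66%. Of all members, 5 of 220 in NonTg (2.27%) and 7 of 282 in 5xFADTg (2.48%) had 2 or more cells. The 0 of 53 thus does not set iNKT-like members apart. Every TRAV11 member was iNKT-like (53 of 53), as were 53 of 57 TRAJ18 members. The other 4, all from 5xFADTg, joined TRAJ18 to TRAV12-2, TRAV3D-3 or TRAV14D-1. Of the meningeal clonotypes shared with parenchyma, 0 of 66 in NonTg (up to 4.55%) and 1 of 44 in 5xFADTg were iNKT-like, which is a description, since the rule split these 2 classes.

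The alpha chains of these cells came from few joins while each beta was different. The first 4 variants printed above, which have no more than 1 non-germline base, were carried by 21, 13, 9 and 6 clonotypes of both libraries together. With the rare variant, in 1 clonotype, they are 5 ways of writing the same amino acids, and 50 of the 53 clonotypes carried that protein sequence. The last 2 iNKT-like lines encode other amino acids, and were in 2 clonotypes and in 1. In NonTg the first 4 variants had 7, 4, 1 and 2 clonotypes and in 5xFADTg 14, 9, 8 and 4, so the first was the most frequent in both libraries. No non-germline alpha base was present in 29 of 53 iNKT-like members (54.7%, 40.4 to 68.4%), against 65 of the 449 others (14.5%, 11.4 to 18.1%). Their alpha CDR3 held 0.438 ± 0.629 non-germline bases in NonTg (SD over 16 clonotypes) and 0.514 ± 0.559 in 5xFADTg (37 clonotypes), and those of the others 2.70 ± 2.32 (204) and 2.97 ± 2.23 (245). The beta CDR3 held 12.1 ± 3.83 and 10.4 ± 4.27 such bases, D bases included, beside 10.2 ± 3.50 and 10.4 ± 3.82 in the others. All 16 and all 37 beta sequences were distinct. This follows largely from counting clonotypes by both chains, since clonotypes of a library with the same alpha must differ in beta. Since the definition fixes both alpha segments and the length, the low number of added alpha bases follows from it in part.

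**Figure D2:**
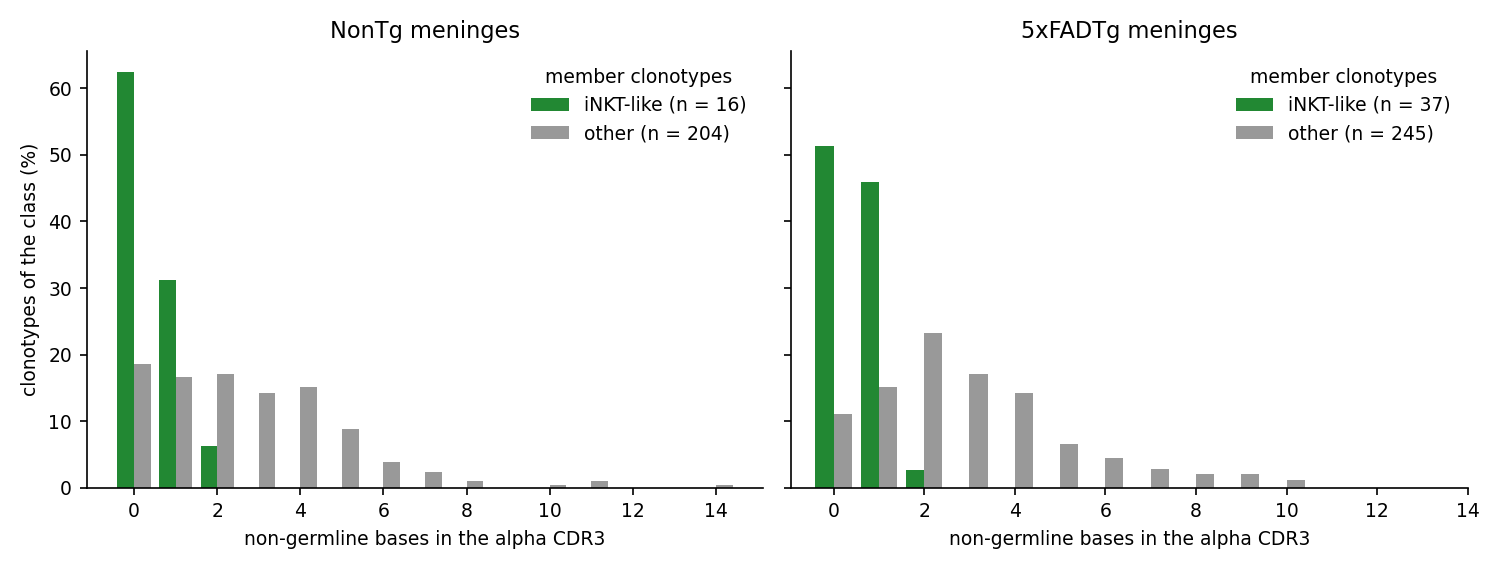
Bars give the percentage of member clonotypes, by the number of non-germline bases in the alpha CDR3, for iNKT-like members (16 in NonTg, 37 in 5xFADTg) and the others (204 and 245). iNKT-like alphas hold at most 2 such bases, the others up to 14.

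The beta segments of iNKT-like members were mostly the usual ones, which the definition did not use. TRBV13-1, TRBV13-2, TRBV13-3, TRBV29 or TRBV1 were in 14 of 16 NonTg (87.5%, 61.7 to 98.4%) and 35 of 37 5xFADTg (94.6%, 81.8 to 99.3%) clonotypes, against 35.3% (28.7 to 42.3%) and 33.5% (27.6 to 39.8%) of the other members. TRBV13-2 alone was in 8 of 16 and 18 of 37, and TRBV13-1 in 4 and 7. TRBV13-3 went the other way, in 1 of 16 (6.25%) and 2 of 37 (5.41%), below its 8.33% and 8.16% of the other members. TRBV29 was in 1 of 16 and 5 of 37 and TRBV1 in 0 and 3, so both were seen mainly in 5xFADTg, at counts too low to separate the genotypes. Those outside the usual list were TRBV17 and TRBV19 in NonTg and TRBV10 and TRBV31 in 5xFADTg, with 1 clonotype each. TRBJ2-7 was the most frequent TRBJ segment of iNKT-like members, in 6 of 16 and 9 of 37. It was also common in the other members, in 47 of 204 in NonTg and 49 of 245 in 5xFADTg. At these counts TRBJ2-7 use does not set iNKT-like members apart. The iNKT-like TRBV13-2 betas held 7 to 22 non-germline bases in NonTg and 4 to 18 in 5xFADTg, and those with the most and the fewest are shown.
NonTg iNKT-like beta, most: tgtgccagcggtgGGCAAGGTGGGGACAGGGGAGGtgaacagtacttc
5xFADTg iNKT-like beta, fewest: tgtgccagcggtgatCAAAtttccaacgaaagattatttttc

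Alpha sequences of iNKT-like members recurred across libraries and those of the others rarely did, which is a description, since the rule used both chains. All 16 NonTg and all 37 5xFADTg iNKT-like members had an alpha nucleotide CDR3 that was also in another library, against 17 of 204 (8.33%, 4.93 to 13.01%) and 11 of 245 (4.49%, 2.26 to 7.89%) of the others. The recurring alphas of the others were closer to germline, with 1.12 ± 1.54 non-germline bases in NonTg (SD, 17 clonotypes) and 1.45 ± 1.92 in 5xFADTg (11), against 2.84 ± 2.33 (187) and 3.04 ± 2.22 (234) in those seen in 1 library. The same TRBV with the same beta amino acids was in a paired cell of another library for 5 of 220 and 5 of 282 members, a number that the rule holds down by leaving out shared pairs. Of these 1 and 2 had another nucleotide sequence. The NonTg one of these joined TRBV13-2 to an iNKT-like alpha, and its match in 5xFADTg parenchyma 1, which differed by 1 base, had a TRAV12-2 alpha.
NonTg member beta: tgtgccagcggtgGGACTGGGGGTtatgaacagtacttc
5xFADTg parenchyma beta: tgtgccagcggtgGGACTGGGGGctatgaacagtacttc

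MAIT-like receptors, whose alpha of 12 amino acids joins TRAV1 to TRAJ33, were near the limit of detection. NonTg meninges had 2 of 220 members (0.909%, 0.110 to 3.25%) and 5xFADTg had 0 of 282, which allows up to 1.06%. Both NonTg clonotypes carried the alpha printed above, which has no non-germline base and was also in 2 to 6 clonotypes of each parenchyma library. Shared meningeal clonotypes had 0 of 66 and 0 of 44, and the parenchymal clonotypes not found in meninges 0.634% to 1.07%.

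The most used segment of each of the 4 families, TRBV13-2, TRBJ2-7, TRAV11 and TRAJ18, was the same in both genotypes. Those after it are given in the order of their pooled counts, which differs from the order within a genotype. Of the beta V segments, 21 were seen in NonTg and 20 in 5xFADTg. TRBV13-2 (chromosome 6, 41121396 to 41121832 on the forward strand, mm10) led with 30 of 220 (13.6%, 9.39 to 18.9%) and 41 of 282 (14.5%, 10.6 to 19.2%). TRBV13-1 followed with 16 and 26, TRBV13-3 with 18 and 22, TRBV3 with 16 and 21 and TRBV19 with 13 and 19 clonotypes. Of the beta J segments, TRBJ2-7 was in 24.1% (18.6 to 30.3%) of NonTg and 20.6% (16.0 to 25.8%) of 5xFADTg members, the largest difference toward NonTg. TRBJ1-1 was in 9.09% and 12.4% and TRBJ2-5 in 10.9% and 9.57%. Of the alpha V segments after TRAV11, TRAV12-2 had 13 and 15 clonotypes, TRAV16 13 and 10, TRAV14-3 10 and 11 and TRAV6-6 8 and 12, with the same pooled count as TRAV6-7 (12 and 8).

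The largest differences between the genotypes lay in the iNKT segments. TRAJ18 (chromosome 14, 54200777 to 54200842) was in 7.27% (4.21 to 11.5%) of NonTg and 14.5% (10.6 to 19.2%) of 5xFADTg members, 7.27 percentage points apart. TRAV11 (53519303 to 53519859) was 5.85 points apart and TRBJ1-1 3.32 points. Toward NonTg, TRAV6-5 (53491115 to 53491622) was in 8 and 2 clonotypes (3.64%, 1.58 to 7.04%, against 0.709%, 0.0860 to 2.54%) and TRAV7-2 (53390635 to 53391142) in 10 and 5 (4.55% and 1.77%). The intervals of all of these overlapped between genotypes. TRAJ31 and TRAJ22, after TRAJ18 the most used alpha J segments, were in 5.00% and 4.96% and in 5.45% and 4.26%.

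**Figure D3:**
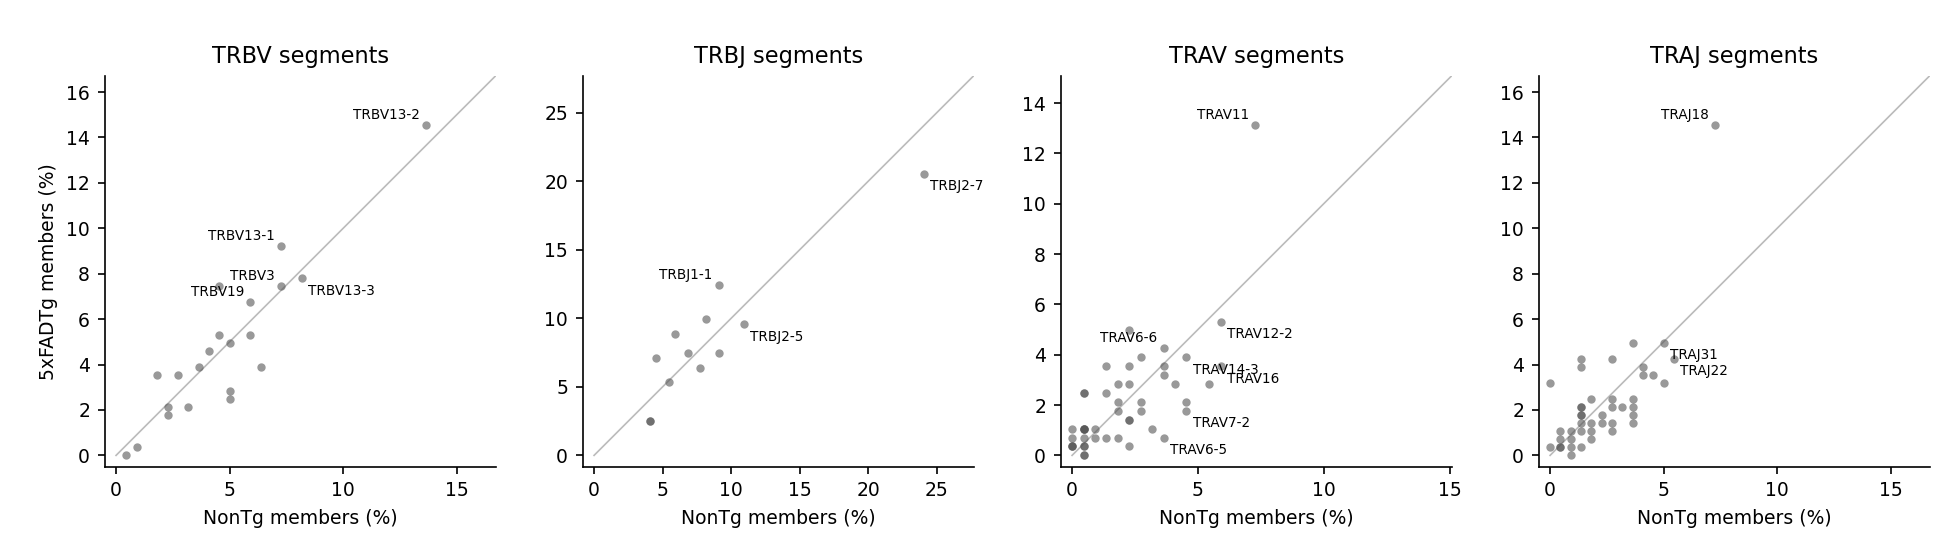
Each point is a V or J segment, at its share of NonTg members (x axis, %) and of 5xFADTg members (y axis, %), with D and N copies of TRAV segments merged. The line marks equal shares. TRAV11 and TRAJ18 lie farthest above it, at 13.1% and 14.5% in 5xFADTg against 7.27% in NonTg.

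CDR3 lengths were alike in the genotypes. Beta CDR3 had 14.1 ± 1.32 amino acids in NonTg (SD, 220 clonotypes, range 11 to 20) and 14.1 ± 1.46 in 5xFADTg (282, 10 to 19). Alpha CDR3 had 13.7 ± 1.43 (8 to 17) and 13.7 ± 1.43 (10 to 17). The most frequent beta length was 14 in both, in 33.2% and 31.6% of clonotypes. The most frequent alpha length was 14 in NonTg (26.8%) and 15 in 5xFADTg (28.7%), where 37 of the 81 clonotypes of 15 amino acids were iNKT-like. In NonTg 16 of the 45 of that length were.

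**Figure D4:**
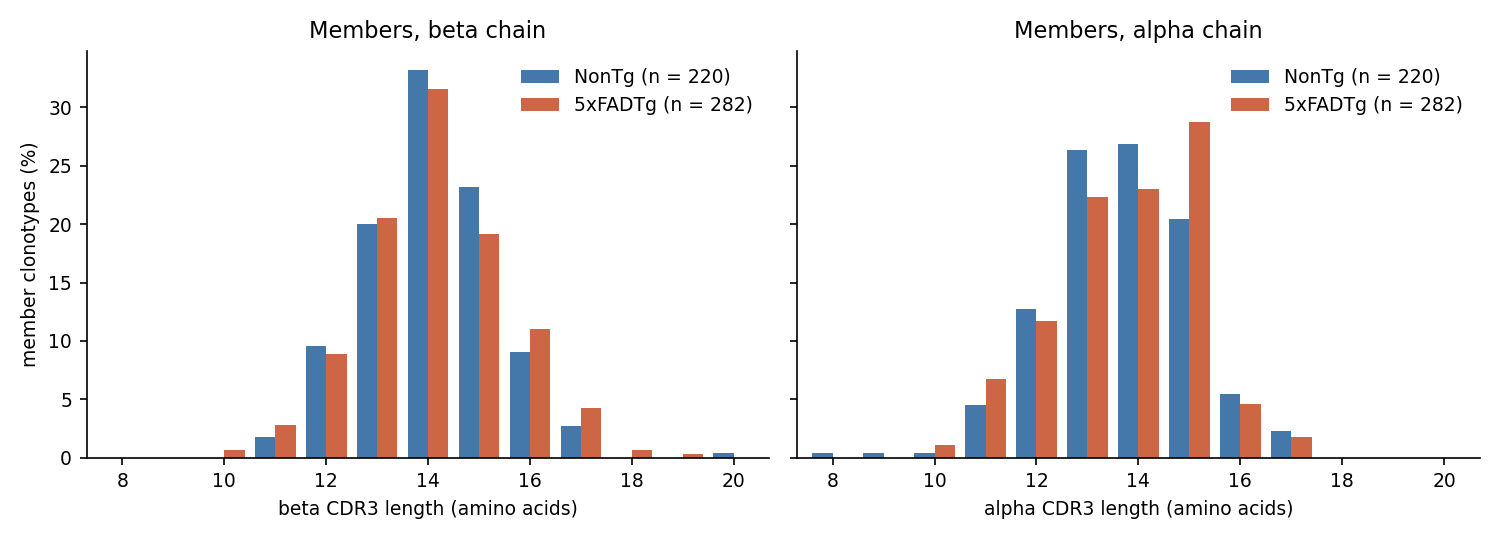
Bars give the percentage of member clonotypes by CDR3 length in amino acids, for the beta (left) and alpha chain (right), in NonTg (220) and 5xFADTg (282). The genotypes differ most at an alpha length of 15, with 20.5% in NonTg and 28.7% in 5xFADTg.

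An additional productive TRA, which can arise when both alleles of the alpha locus rearrange in frame, was found at close shares in the members of both genotypes. It was in 19 of 228 NonTg cells (8.33%, 5.09 to 12.7%) and 24 of 292 5xFADTg cells (8.22%, 5.34 to 11.98%). The additional chain was weaker, with a median of 5 UMIs in both genotypes beside 95 and 56.5 for the main chain, and it was at 1 UMI in 1 cell of each. Its source in these cells was not tested. No cell had 3 TRA chains, and 0 of 53 iNKT-like members had an additional one. In NonTg, both TRA of a cell used TRAJ61 to TRAJ31, the segments nearest the V segments, in 6 cells, both used the farther ones in 11, and 2 cells had 1 of each. In 5xFADTg the cells were 9, 10 and 5. In the shared meningeal clonotypes the share was 21 of 121 cells (17.4%, 11.1 to 25.3%) in NonTg and 5 of 78 (6.41%, 2.11 to 14.3%) in 5xFADTg. Of these cells, 79 of 121 and 45 of 78 were in clonotypes of 2 or more cells. Cells of a clone can carry the same additional chain, so these intervals can be too narrow. When NonTg parenchyma 1 was left out of the matching, the NonTg members reached 12.9%. Median TRA UMIs per member cell were 89.5 in NonTg and 53 in 5xFADTg, and the part of this depth in the shares was not tested.

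The members were then set against the parenchymal clonotypes not found in the meninges of the same genotype, 559 and 430 in NonTg and 631 and 766 in 5xFADTg libraries, over 10 measures. With 2 against 4 libraries the smallest two-sided exact permutation p is 0.133, so no measure could pass 0.05. iNKT-like clonotypes were 7.27% and 13.1% in the meninges and 2.86%, 3.26%, 4.28% and 6.92% in parenchyma. Both meninges libraries lay above all 4 parenchyma libraries, NonTg meninges narrowly. The means were 10.2% ± 4.14 (SD, n = 2) and 4.33% ± 1.83 (n = 4), 5.87 percentage points apart (exact permutation p = 0.133, Benjamini-Hochberg adjusted 0.333). Within genotype the difference was 4.21 points in NonTg and 7.52 in 5xFADTg. Without the 5xFADTg meninges it was 2.99 points and without the NonTg meninges 8.88. With the shared clonotypes kept in both tissues it was 4.44 points and the libraries overlapped (exact permutation p = 0.267).

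An additional TRA was in 9.22%, 13.5%, 9.01% and 9.93% of the parenchymal cells, all above the 2 meninges libraries. The difference of the means was -2.13 points (exact permutation p = 0.133, adjusted 0.333), and it turned to 0.751 points with the shared clonotypes kept. Without NonTg parenchyma 1 it was -0.248 points (exact permutation p = 0.8). The alpha CDR3 of members held 2.53 and 2.65 non-germline bases on average, below 2.67, 2.72, 2.70 and 2.67 in parenchyma, a difference of -0.10 bases (exact permutation p = 0.133). This turned to 0.042 bases without iNKT-like receptors, and over left-out libraries it ranged from -0.158 bases, without the 5xFADTg meninges, to -0.046, without NonTg parenchyma 1. The beta CDR3 held 10.3 and 10.4 such bases, above 10.3, 9.85, 9.96 and 10.1, where NonTg meninges exceeded NonTg parenchyma 1 by less than 0.1 bases. That difference was 0.297 bases (exact permutation p = 0.133). MAIT-like share, both CDR3 lengths, TRBJ1 use, TRAJ61 to TRAJ31 use and the share of usual iNKT TRBV segments overlapped between the tissues, with exact permutation p-values of 0.267 to 0.8.

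**Figure D5:**
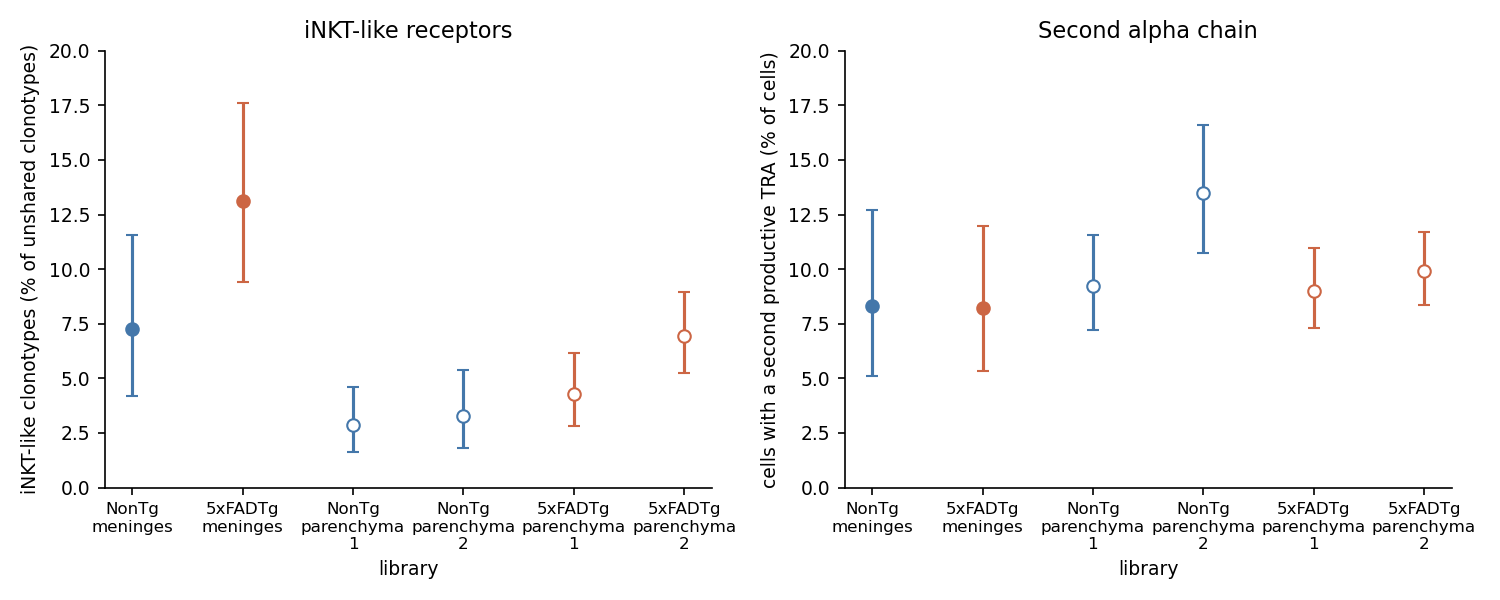
Points give, by library, the share of iNKT-like clonotypes (left, %) and of cells with an additional productive TRA (right, %) among clonotypes not shared between the tissues, with 95% exact binomial intervals. Members (filled) lie at 7.27% and 13.1% on the left and at 8.33% and 8.22% on the right.

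By segment, edgeR's quasi-likelihood test with genotype as covariate called 2 of 117 segments (1.71%) between members and those parenchymal clonotypes, both higher in members and both iNKT segments. TRAV11 was in 7.27% and 13.1% of members and in 3.04%, 3.49%, 4.28% and 7.44% of parenchymal clonotypes, where NonTg meninges lay below 5xFADTg parenchyma 2. Its log2 fold change was 1.14 (SE 0.26, edgeR adjusted p = 0.0118). TRAJ18 was in 7.27% and 14.5% of members and in 4.29%, 4.65%, 4.91% and 8.62% of parenchymal clonotypes, with a log2 fold change of 0.95 (SE 0.25, edgeR adjusted p = 0.0346). The next in the higher direction was TRAJ9, in 4.05% ± 0.707 of members and 2.17% ± 0.635 of parenchymal clonotypes (log2 fold change 0.82, 0.38 to 1.48 over left-out libraries, edgeR adjusted p = 0.632). In the lower direction TRAJ53 was in 0 of 220 and 1 of 282 members and in 1.04% to 2.50% of parenchymal clonotypes (log2 fold change -2.86, -6.50 to -1.72 over left-out libraries, edgeR adjusted p = 0.281). TRAV3-3 (log2 fold change -0.85, -1.03 to -0.75 over left-out libraries) and TRAJ40 (-1.19, -1.51 to -0.89) had edgeR adjusted p-values of 0.356 and 0.379. The same 53 clonotypes make up all TRAV11 members and 53 of the 57 TRAJ18 members, so these 2 calls are not independent of each other or of the iNKT-like share. The median log2 fold change over all 117 segments was -0.04.

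Both calls were lost with all clonotypes kept, without each of 5 of the 6 libraries and with DESeq2, and in those fits the fold changes kept their direction. Without iNKT-like receptors, which hold every TRAV11 member, the log2 fold change of TRAJ18 was -0.60. The rule removes 66 of 286 and 44 of 326 meningeal clonotypes, of which 1 was iNKT-like, and a smaller share of the parenchymal ones (47 of 606, 19 of 449, 26 of 657 and 18 of 784), which raises the share of TRAV11 and TRAJ18 in the meninges. With all clonotypes kept, the log2 fold changes were 0.95 and 0.80, and the edgeR adjusted p was 0.222 for TRAV11 and 0.296 for TRAJ18. Leaving out a library gave edgeR adjusted p-values, for TRAV11 and TRAJ18, of 0.670 and 0.670 without NonTg meninges and 0.475 and 0.977 without 5xFADTg meninges. They were 0.176 and 0.176 without NonTg parenchyma 1, 0.331 and 0.337 without NonTg parenchyma 2 and 0.145 and 0.404 without 5xFADTg parenchyma 1. Over these 5 fits the log2 fold change was 0.84 to 1.16 for TRAV11 and 0.65 to 1.08 for TRAJ18. Both calls held without 5xFADTg parenchyma 2. DESeq2 gave log2 fold changes of 1.16 and 0.92 and called 0 segments, with 2 at an unadjusted p under 0.05, against 8 with edgeR.

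Some members had traces in parenchyma that the rule does not count. The TRB alone was in a productive contig of a parenchymal cell of the genotype for 12 of 220 NonTg members (5.45%, 2.85 to 9.33%) and 9 of 282 5xFADTg members (3.19%, 1.47 to 5.97%). In 8 of the 12 and 4 of the 9, the same parenchymal cell also held the member's TRA. Such cells mostly fell outside the paired cells, since 6 of the 12 and 6 of the 9 members were in a cell with 2 or more TRB and 3 and 2 in a cell without TRA. Of the NonTg members of 2 or more cells, 4 of 5 had such a trace, against 8 of 215 of those with 1 cell (3.72%, 1.62 to 7.20%). In 5xFADTg it was 1 of 7 and 8 of 275. Both largest members had their TRB in 1 parenchymal cell, that of NonTg in a cell without TRA and that of 5xFADTg in a paired cell of 5xFADTg parenchyma 1 with an iNKT-like TRAV11 alpha. The trace in most cells was a NonTg member of 1 cell with TRBV13-2 and TRBJ2-7, whose TRB and TRA were together in 4 parenchymal cells, each with 2 or more TRB. A 5xFADTg TRBV10 member had its TRB in 3 parenchymal cells, a NonTg TRBV16 member in 2 with another TRA, and a 5xFADTg TRBV3 member in 2. With clonotypes defined by TRB alone and matched against every parenchymal cell, the members were 208 in NonTg and 272 in 5xFADTg.
NonTg member with 4 traces, beta: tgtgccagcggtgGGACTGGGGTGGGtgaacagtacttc

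Across genotypes, 1 of 220 NonTg members had its TRA and TRB pair in a 5xFADTg library, and 0 of 282 5xFADTg members had theirs in a NonTg library (up to 1.06%). That receptor joined TRBV3 to TRAV5-4 and was in 1 cell of NonTg meninges and 1 cell of 5xFADTg parenchyma 2, under different barcodes. Of the 520 member cells, 5 carried a barcode that another library also listed, and 0 of those shared a CDR3 with it.
Beta of the receptor in both genotypes: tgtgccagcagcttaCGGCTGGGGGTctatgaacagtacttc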

How the data were processed

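Receptor libraries were made from sorted CD45+ cells with a Chromium Single Cell Immune Profiling kit, per the labels' protocols, and the submitters' processing notes name Cell Ranger 6.0 and mm10. The 6 deposited receptor files list assembled contigs per cell with raw counts of reads and UMIs, not normalized, per the file headers; the sources used here give no other filter. The 6 gene expression samples were not analysed here.

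Cells with 2 or more TRB (431 of 7056 over all libraries), no TRA (1222) or no TRB (230) were left out, and no other doublet filter was run. Clonotypes were counted once per library. TRAV segments that differ only by a D or N copy letter were merged, and the joint label TRBV12-2+TRBV13-2 was counted as TRBV13-2, to which 638 of 645 such cells were closer. Germline V and J sequences came from GENCODE M21 transcripts (GRCm38, the assembly of mm10). The longest match from each end of the CDR3 was taken as germline and the bases between as non-germline, which cannot count an added base that equals the germline base. TRBV10 (25 member clonotypes) could not be split and was left out of beta values.

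Shares carry 95% exact (Clopper-Pearson) intervals, and a count of 0 the limit of 3 counts. Library means were compared by two-sided exact permutation tests with Benjamini-Hochberg adjustment over 10 measures. Clonotypes per segment (at least 10 over the libraries) were tested in R 4.3.3 with limma 3.58.1 and edgeR 4.0.16, scaled by each library's clonotypes, at an adjusted p threshold of 0.05. DESeq2 1.42.0 was an alternative. Expected numbers at equal cells are hypergeometric. The tests were checked on simulated data. There the edgeR test missed most changes about as small as those of TRAV11 and TRAJ18, so a segment that was not called may still differ. Other steps ran in Python 3.11.15 (scipy 1.17.1, numpy 2.4.6, pandas 2.3.3; plots with matplotlib 3.10.9).

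The members, lists, receptor definitions and measures were chosen with earlier results of these data known. Named segments were the 5 TRBV, 5 TRAV, 3 TRBJ and 3 TRAJ with most member clonotypes, the 3 with the largest difference each way between genotypes (at least 10 member clonotypes), those called, and the 3 with the smallest p each way. The expanded members and the TRB traces in 2 or more parenchymal cells were described by size or count; the 2 TRBV13-2 betas shown and the TRBJ2-7 use of iNKT-like members were chosen after their values were seen.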

Additional observations from a re-analysis of the deposited data

Results flagged for a closer look

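Outside the paired cells, the TRB of many meningeal cells was also in parenchyma. Of the NonTg meningeal cells with a productive TRB that were not paired (no TRA, or 2 or more TRB), 32 of 58 had a TRB that was in a parenchymal cell of the genotype (55.2%, 95% exact interval 41.5 to 68.3%). In 5xFADTg it was 34 of 92 (37.0%, 27.1 to 47.7%). Of the paired meningeal cells, 140 of 349 in NonTg (40.1%, 34.9 to 45.5%) and 90 of 370 in 5xFADTg (24.3%, 20.04 to 29.03%) had their TRB there. The paired and unpaired shares are not like for like, since unpaired cells with 2 or more TRB had more sequences to match. In the parenchyma of the other genotype 0 of 58 and 0 of 92 were found. The unpaired cells are given here because they take no part in the comparisons above and hold this signal. Of the cells with 2 or more TRB, 15 of 22 and 9 of 19 had such a TRB, and of those with 1 TRB and no TRA 17 of 36 and 25 of 73. The remaining 26 and 58 cells had no TRB in the parenchyma of their genotype.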

How the results depend on the processing

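No paired analysis was possible because the labels give the meninges libraries no replicate number. Member clonotypes ranged from 208 to 267 in NonTg and from 271 to 308 in 5xFADTg over the matching rules, UMI minimum, left-out parenchyma libraries and, added after the data were seen, equal parenchymal cells. The iNKT-like share stayed at 5.59 to 7.69% in NonTg and 11.7 to 13.6% in 5xFADTg. The NonTg share of cells with an additional TRA, 8.33%, was 7.12% to 12.9% when a parenchyma library was left out. Without iNKT-like receptors, TRAJ61 to TRAJ31 use of 5xFADTg members was 50.2% against 43.6%, and the usual iNKT TRBV share 33.5% against 41.5%; both follow from the removed receptors. The number of called segments, 2, was 0 with all clonotypes, over cells, without iNKT-like receptors and with DESeq2, and ranged from 0 to 2 over left-out libraries. In these alternatives 3 to 9 segments had an unadjusted p under 0.05 with edgeR and 2 with DESeq2. Over cells, the log2 fold changes were 1.37 for TRAV11 and 1.16 for TRAJ18, with an edgeR adjusted p of 0.123 for both. Both were called under every other alternative (4 other matches, at least 2 UMIs, TRAV copies apart, TMM factors, no count filter and, added after the data were seen, the joint TRBV label apart). TRAJ18 fell to a log2 fold change of -0.60 without iNKT-like receptors. Differences between members and parenchyma that changed sign were those of an additional TRA (0.751 points with all clonotypes), TRA length (-0.081 amino acids without iNKT-like receptors), TRBJ1 use (-2.17 points over cells), TRAJ61 to TRAJ31 use (1.36 points without iNKT-like receptors) and non-germline TRA bases (0.012 over cells, 0.042 without iNKT-like receptors). Over left-out libraries, TRA length ranged from -0.031 to 0.052 amino acids, TRBJ1 use from -1.35 to 4.13 points, TRAJ61 to TRAJ31 use from -2.996 to 1.14 points and MAIT-like share from -0.857 to 0.033 points. The cause of these changes was not tested. Leaving out a meninges library leaves its parenchyma unmatched. The number of clonotypes limits rare receptors, since 0 of 282 still allows 1.06%.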
